A study of Mus musculus with 8 samples.

Results

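The Indian hedgehog pathway of the uterus was followed here through 9 genes: the ligand gene Ihh, the receptor genes Ptch1, Boc and Gas1, the signal transducer Smo, the transcription factors Gli1, Gli2 and Gli3, and the ligand-binding inhibitor Hhip. Members were the array probe sets whose only gene symbol in the platform's gene table was one of these names, and all 9 genes were found among the 19938 genes with such a probe set, each by 1 probe set. All 9 passed the filter on low intensity used below (an intensity over its array's 40th percentile on at least 4 of 8 arrays). The uteri came from young C57BL/6 females, an inbred mouse strain, and were taken on day 3 at 22 h, with the night of mating as day 0. In the pregnant group (4 arrays) the females had been mated with fertile males; their uteri gave no blue dye reaction, a sign that embryos had not yet attached, and blastocysts were flushed out of them. In the pseudopregnant group (4 arrays) the females had been mated with vasectomised males, which brings on the hormonal state of early pregnancy without embryos. Because the kind of male differed along with the presence of embryos, these cannot be told apart. Both groups were unmodified animals, each sample is labelled a biological replicate, and the submitters kept the uteri with the best RNA, with integrity numbers of 6.9 to 8.7.

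In the mouse uterus before implantation, progesterone acting through its receptor Pgr in the epithelium switches on Ihh, and the secreted protein acts on the stroma underneath. Hedgehog binding to Ptch1 releases Smo from inhibition, and Smo then turns the Gli factors toward activation at the primary cilium. Ptch1, Hhip and Gli1 are themselves hedgehog target genes: Ptch1 and Hhip take up ligand and damp the signal, and Gli1 amplifies it, so their levels are widely used as a readout of signalling.

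The promoters of the ligand gene and of 2 of its feedback targets are shown here. These genes were low together on 1 pregnant array, as given below, and a shared control was not tested. The RefSeq promoter table (assembly GRCm38.p6), with 250 bases before and 50 after each transcription start, held 7 of the 9 members, and Gli1 and Boc were not among them. The sequences are written along the gene's own strand, which is the minus strand for each of these genes, and capitals mark the core of the Gli binding motif (CCACCC, or GGGTGG on the other strand). They lie at chr1:74951623-74951922 (Ihh), chr13:63565686-63565985 (Ptch1) and chr8:80057959-80058258 (Hhip).
Ihh: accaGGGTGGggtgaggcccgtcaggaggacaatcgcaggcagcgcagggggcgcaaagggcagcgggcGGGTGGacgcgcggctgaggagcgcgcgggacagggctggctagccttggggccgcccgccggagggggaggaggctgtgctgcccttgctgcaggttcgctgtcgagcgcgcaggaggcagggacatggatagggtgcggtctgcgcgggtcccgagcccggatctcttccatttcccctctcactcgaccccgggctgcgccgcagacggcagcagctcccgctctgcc
Ptch1: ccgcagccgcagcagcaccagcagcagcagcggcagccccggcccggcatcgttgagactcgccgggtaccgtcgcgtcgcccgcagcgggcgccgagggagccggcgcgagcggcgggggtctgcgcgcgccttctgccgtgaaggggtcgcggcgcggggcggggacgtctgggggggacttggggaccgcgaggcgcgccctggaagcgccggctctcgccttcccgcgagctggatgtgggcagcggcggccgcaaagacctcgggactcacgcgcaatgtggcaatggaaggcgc
Hhip: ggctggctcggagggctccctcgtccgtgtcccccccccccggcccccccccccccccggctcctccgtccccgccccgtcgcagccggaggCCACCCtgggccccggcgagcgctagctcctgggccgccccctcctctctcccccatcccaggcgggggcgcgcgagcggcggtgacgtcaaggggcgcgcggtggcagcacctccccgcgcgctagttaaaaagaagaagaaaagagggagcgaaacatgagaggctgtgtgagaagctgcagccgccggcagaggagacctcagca
The Ihh window held 2 cores, the Hhip window 1 and the Ptch1 window 0. The core occurred in 5 of the 7 member promoters and in 31.5% of all 32851 promoters of that length. The longer Gli site GACCACCCA (TGGGTGGTC on the other strand), which contains the core, occurred in 0 of the 7 and in 0.253% of all. These windows were rich in G and C, with 72.7% for Ihh, 76.3% for Ptch1 and 73.7% for Hhip, against a median of 52.7% over all promoters. A match is a description of the letters and not evidence of binding.

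Values are log2 of the deposited array intensities. A probe set's level is compared between arrays, not with that of another probe set. On the first principal component of all kept probe sets (46.1% of the variance), the array of pregnant replicate 2 lay at -26.7, apart from the other pregnant arrays (-6.6 to -4.9). Pseudopregnant replicate 1 lay at 20.3, apart from the other pseudopregnant arrays (6.8 to 9.3). The results below that rest on pregnant replicate 2 are given with and without it. Median intensities were alike on the 8 arrays (55.2 to 56.3), and arrays of one group correlated at 0.984 to 0.994.

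Between pregnant and pseudopregnant uterus 0 of the 9 members had an adjusted p under 0.05 in limma, a threshold that 1.82% of the 17494 kept probe sets passed. At an unadjusted p under 0.05, 1 member was lower in the pregnant group and 0 were higher, where 9.43% of all kept probe sets were lower and 14.3% higher. The median difference over the 9 members was -0.08, with 2 above 0 and 7 below, and that over all kept probe sets was 0.0019. What stood out among the members lay within the pregnant group. Ihh and its targets Hhip, Gli1 and Ptch1 were low together in the uterus of pregnant replicate 2, while Smo, Gli2, Gli3, Boc and Gas1 kept to levels near those of the other arrays there.

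**Figure D1:**
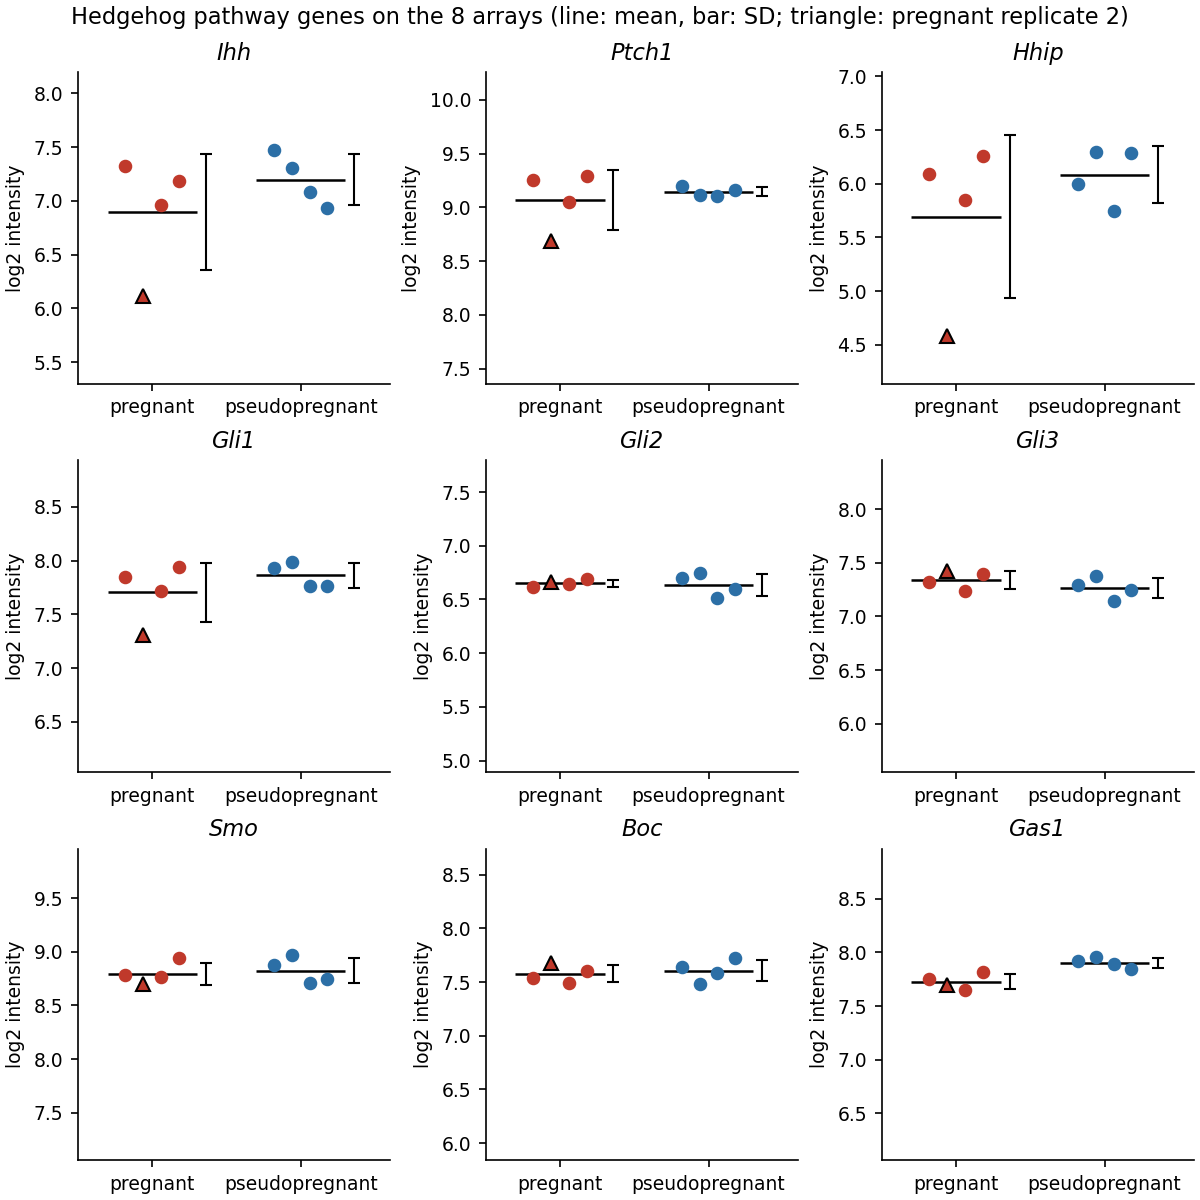
Log2 intensity (vertical axis) of each of the 9 hedgehog genes on the pregnant arrays (red) and the pseudopregnant arrays (blue), with each group's mean (line) and SD (bar, n = 4 each); every panel has the same height in log2 units. The triangle, pregnant replicate 2, lies below all other points for Ihh (6.12), Ptch1 (8.69), Hhip (4.58) and Gli1 (7.31), while for Gas1 all 4 pregnant points lie below the pseudopregnant ones.

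Ihh encodes the hedgehog ligand of the uterine epithelium. Its log2 intensity was 7.32, 6.12, 6.96 and 7.19 in pregnant replicates 1 to 4, against 7.47, 7.31, 7.08 and 6.94 in pseudopregnant replicates 1 to 4. Pregnant replicate 2 was the lowest array, and the other 3 pregnant arrays lay within the pseudopregnant range. The group means were 6.90 ± 0.54 and 7.20 ± 0.24 (SD, n = 4 each), a difference of -0.30 with a 95% interval from -0.82 to 0.22 (limma adjusted p = 0.456). Without pregnant replicate 2 the difference was -0.04, from -0.33 to 0.25 (limma adjusted p = 0.889). The interval over all arrays corresponds to folds from 0.566 to 1.16, so 4 uteri a group could not resolve a change within it. The other hedgehog ligand genes, Shh and Dhh, did not pass the intensity filter: 0 and 1 of the 8 arrays lay above their own 40th percentile, so no difference is given for them.

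Ptch1, the receptor that binds hedgehog and is induced by it, had log2 intensities of 9.25, 8.69, 9.05 and 9.29 in the pregnant uteri and 9.20, 9.12, 9.11 and 9.16 in the pseudopregnant uteri. The pseudopregnant values were tight (SD 0.042), whereas the pregnant ones spread over both sides of them (SD 0.28), again with replicate 2 lowest. The difference was -0.08, with a 95% interval from -0.34 to 0.18 (limma adjusted p = 0.713), and without pregnant replicate 2 it was 0.05 (limma adjusted p = 0.732). No shift of the receptor's transcript between the groups was resolved, and its sign rests on that one array.

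The co-receptors Boc and Gas1 are cell surface proteins that bind hedgehog and present it to Ptch1. Gas1 had log2 intensities of 7.75, 7.70, 7.65 and 7.81 in pregnant uteri and 7.92, 7.95, 7.89 and 7.84 in pseudopregnant uteri. Every pregnant value lay below every pseudopregnant one, and Gas1 was the only member whose groups did not overlap. That separation, lower in the pregnant group, was found for 5.38% of all kept probe sets, and the opposite one for 9.23%. The difference of Gas1 was small, -0.17 ± 0.054 (SE), with a 95% interval from -0.29 to -0.05 and a fold of 0.886. It did not pass after adjustment (limma adjusted p = 0.101, and 0.059 to 0.200 over the alternatives tried), and it was -0.16 without pregnant replicate 2. Boc ranged from 7.49 to 7.68 in pregnant and from 7.48 to 7.72 in pseudopregnant uteri, with a difference of -0.03 (95% interval -0.18 to 0.12, limma adjusted p = 0.822).

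Smo, the membrane protein that passes the signal on, had log2 intensities of 8.78, 8.70, 8.76 and 8.94 in pregnant uteri, against 8.87, 8.97, 8.71 and 8.75 in pseudopregnant uteri. The groups overlapped over nearly their whole range. The difference was -0.03, with a 95% interval from -0.20 to 0.14 (limma adjusted p = 0.831).

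Gli1 encodes the activator that is itself switched on by the pathway. Its log2 intensity was 7.85, 7.31, 7.72 and 7.94 in pregnant and 7.93, 7.99, 7.76 and 7.76 in pseudopregnant uteri. Replicate 2 was again the lowest array, and the other 3 pregnant values lay within 0.1 of the pseudopregnant range. The difference was -0.16, with a 95% interval from -0.44 to 0.12 (limma adjusted p = 0.461), and -0.03 without pregnant replicate 2 (limma adjusted p = 0.876). Gli2, the main activator of target genes in the mouse, and Gli3, the main repressor, did not share the low value. Gli2 was 6.61, 6.66, 6.64 and 6.69 in pregnant uteri and 6.70, 6.74, 6.51 and 6.59 in pseudopregnant uteri, a difference of 0.02 (95% interval -0.12 to 0.15). Gli3 was 7.32, 7.42, 7.24 and 7.39 in pregnant uteri and 7.29, 7.37, 7.15 and 7.24 in pseudopregnant uteri, a difference of 0.08 (95% interval -0.07 to 0.22). In both genes pregnant replicate 2 sat among the upper pregnant values, and Gli3 had its highest value there. The limma adjusted p was 0.890 for Gli2 and 0.497 for Gli3.

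Hhip encodes a membrane-anchored and secreted decoy that binds hedgehog and is induced by it. Its log2 intensity was 6.09, 4.58, 5.85 and 6.26 in pregnant uteri, against 6.00, 6.30, 5.74 and 6.29 in pseudopregnant uteri. The value of replicate 2 was the lowest, and it lay under that array's 40th percentile (5.23), so its size is not exact. The difference was -0.39, with a 95% interval from -1.09 to 0.31 (limma adjusted p = 0.477), and -0.02 without pregnant replicate 2 (limma adjusted p = 0.958).

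**Figure D2:**
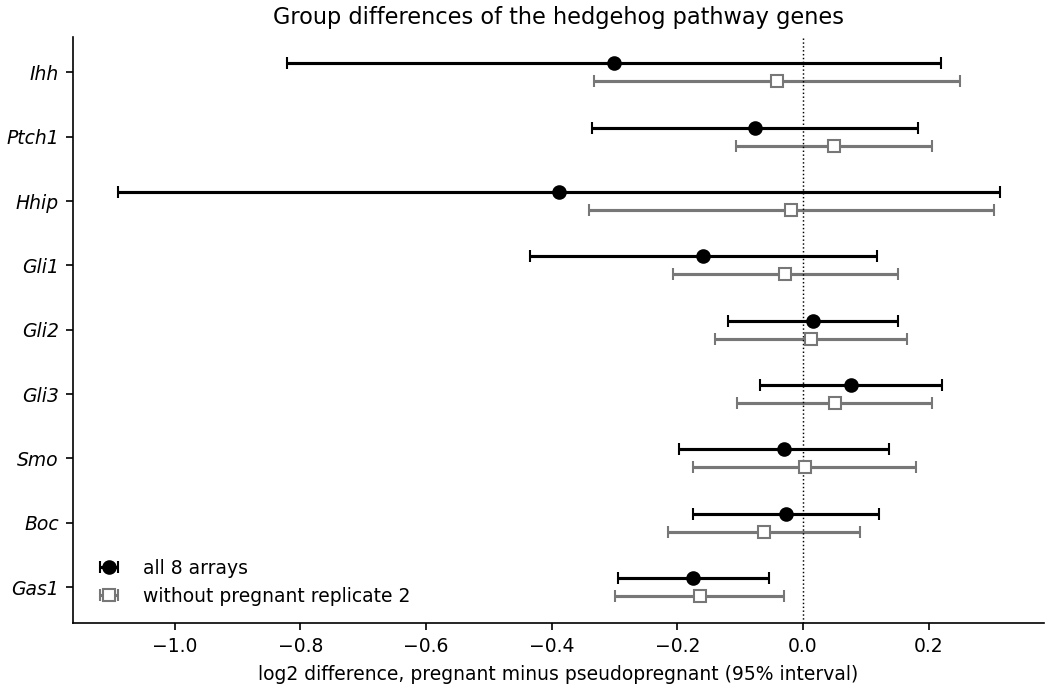
Difference in log2 intensity, pregnant minus pseudopregnant (horizontal axis), with its 95% interval for each of the 9 genes, over all 8 arrays (black circles) and without pregnant replicate 2 (open squares). Without that array the differences of Ihh, Ptch1, Hhip and Gli1 lie between -0.04 and 0.05 with narrower intervals, and of the 9 intervals that of Gas1 alone lies below 0 in both fits.

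In pregnant replicate 2 the intensity of Ihh was 48.6% of the geometric mean of the other 3 pregnant arrays. Hhip was under that array's 40th percentile, so no share is given for it. Gli1 stood at 69.6% and Ptch1 at 70.4%. The remaining members were at 91.4% (Smo), 97.3% (Gas1), 101% (Gli2), 108% (Gli3) and 110% (Boc). The low genes were thus the ligand and the 3 pathway-induced genes, and the transducer, the other Gli factors and both co-receptors were not among them. With a gap of more than 0.3 below the lowest of the other 7 arrays, a limit chosen after the values had been seen, pregnant replicate 2 was the lowest array for 4 of 9 members, against 1.82% of all kept probe sets. It was the highest array by that gap for 0 of 9 members, against 2.28% of all. By any gap it was the lowest array for 5 of 9 members and the highest for 1, against 22% and 19.2% of all. These shares describe 1 uterus of the 4 and are no comparison of pregnancy with pseudopregnancy.

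The 6 pairs among Ihh and its feedback targets were examined over the arrays. With pregnant replicate 2 included, the values below restate the low levels of that array and are no separate evidence. Over the 8 arrays, Pearson's r between Ihh and Gli1 was 0.961 (exact permutation p = 0.0027, 0.016 adjusted over the 6 pairs), and Spearman's rho was 0.786 (exact permutation p = 0.028, adjusted 0.125). Between Ihh and Ptch1 r was 0.905 (exact permutation p = 0.016, adjusted 0.020) and rho 0.667 (exact permutation p = 0.083, adjusted 0.125). Between Ihh and Hhip r was 0.860 (exact permutation p = 0.047, adjusted 0.047) and rho 0.357 (exact permutation p = 0.389, adjusted 0.389). Ptch1, Gli1 and Hhip correlated among themselves with r of 0.908 to 0.924 (exact permutation p = 0.011 to 0.016, each 0.020 adjusted) and rho of 0.595 to 0.690 (exact permutation p = 0.069 to 0.132, adjusted 0.125 to 0.159).

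The high r of the 5 pairs other than Ihh with Gli1 rested largely on pregnant replicate 2. For Ihh with Gli1 r fell less, though its adjusted p under 0.05 also needed that array. Leaving out the 2 arrays farthest from the median of the gene named first, r was 0.807 for Ihh with Gli1, 0.509 with Ptch1 and 0.320 with Hhip, and 0.362 to 0.432 among the targets. Without pregnant replicate 2 alone, r was 0.804 for Ihh with Gli1 over 7 arrays (exact permutation p = 0.042, adjusted 0.251), and the other 5 pairs had r of 0.147 to 0.571 (exact permutation p adjusted 0.315 to 0.746). None of the 6 pairs passed then. Without pregnant replicate 3 the 5 pairs other than Ihh with Gli1 had r of 0.861 to 0.928 and did not pass either (exact permutation p adjusted 0.051 to 0.079). Within the other 7 arrays Ihh and Gli1 still ran closest: both were high in pseudopregnant replicates 1 and 2 and in pregnant replicates 1 and 4, and lower in the remaining 3.

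**Figure D3:**
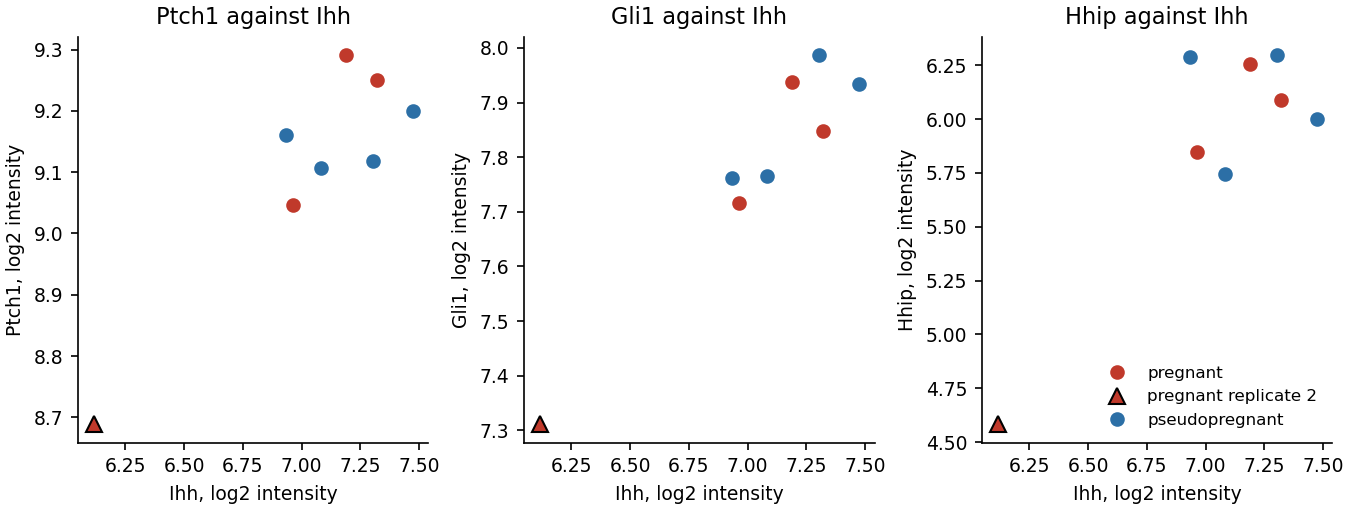
Log2 intensity of Ptch1, Gli1 and Hhip (vertical axes) against that of Ihh (horizontal axis), 1 point an array, in the 4 pregnant arrays (red, replicate 2 as a triangle) and the 4 pseudopregnant arrays (blue). Pregnant replicate 2 lies alone at the lower left of each panel, and over the other 7 arrays r is 0.490 for Ptch1, 0.804 for Gli1 and 0.147 for Hhip.

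As a description, the genes whose log2 values were most like those of Ihh over the 8 arrays, among 13038 other genes, were Gcn1 (r = 0.979), Ephx4 (0.978), Astn2 (0.977), Abcc1 (0.976) and Xpnpep2 (0.968). Those most like Gli1 were Astn2 (0.993), Ahnak (0.982), Shank1 (0.972), Mmp16 (0.969) and Trim46 (0.964). Pregnant replicate 2 was the lowest array for each of these 9 genes, and over the other 7 arrays their r lay between 0.854 and 0.967. The genes were picked by r over all 8 arrays, so the values over 7 of the same arrays are no separate evidence of likeness.

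Most differences among the remaining genes of the pathway were small. Of 29 further genes for making, releasing, receiving and transducing hedgehog, 26 had a single-symbol probe set and 23 passed the filter. Of the 23, 0 passed the limma threshold, 9 differences were above and 14 below 0, and their median was -0.03. Among the 23, at an unadjusted p under 0.05, 4 were higher in the pregnant group and 0 lower, near the 14.3% and under the 9.43% of all kept probe sets. In those 4 the groups did not overlap, which was so in this direction for 9.23% of all. They were Spop, the adaptor that brings Gli proteins to a ubiquitin ligase, with a difference of 0.26 ± 0.065 (SE), and Cul3, the scaffold of that ligase, with 0.16. With them stood Scube1, of a family of secreted proteins that help release the ligand, with 0.14, and the kinase Csnk1a1, which phosphorylates Gli proteins and Smo, with 0.13. The limma adjusted p was 0.065 for Spop, 0.133 for Cul3, 0.145 for Scube1 and 0.195 for Csnk1a1. Without pregnant replicate 2 Spop differed by 0.24 (limma adjusted p = 0.129).

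In 2 of the 23 genes pregnant replicate 2 was lowest by more than 0.3, against 1.82% of all kept probe sets: Lrp2 and Disp2, named after their values were seen. Lrp2, megalin, is an endocytic receptor of epithelia that can take up hedgehog proteins. It had log2 intensities of 8.81, 6.76, 8.97 and 8.24 in pregnant uteri and 9.81, 8.89, 9.25 and 8.52 in pseudopregnant uteri. The groups overlapped, with the low end at pregnant replicate 2 and the high end at pseudopregnant replicate 1. Its difference was -0.93, with a 95% interval from -1.92 to 0.07 (limma adjusted p = 0.241), and -0.45 without pregnant replicate 2 (limma adjusted p = 0.405). Disp2, a relative of the ligand-releasing protein Disp1, stood at 4.93 in pregnant replicate 2, under that array's 40th percentile, and between 5.40 and 5.77 on the other 7 arrays.

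Of 24 genes of the primary cilium, the organelle in which Smo meets the Gli proteins, 22 were measured and 0 passed the limma threshold. Their differences were 6 above and 16 below 0, with a median of -0.05 and a range of -0.23 to 0.25. Ift20, a transport subunit of the cilium, differed by 0.25 (limma adjusted p = 0.066), and Bbs1, of the complex that moves membrane proteins in and out of it, by -0.23 (limma adjusted p = 0.076). Ift81 differed by -0.12 and Fuz, needed for cilium assembly, by -0.11 (limma adjusted p = 0.215 and 0.234). The groups did not overlap in these 4 genes, 1 of 22 higher and 3 of 22 lower in the pregnant group, where 9.23% and 5.38% of all kept probe sets were apart in these directions.

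Genes that hedgehog induces in other tissues were spread evenly around 0. Of 20 such genes 14 were measured, 0 passed the limma threshold, and 7 lay above and 7 below 0, with a median of 0.0016. Sfrp1, a secreted Wnt inhibitor, had log2 intensities of 6.27, 7.24, 6.21 and 6.36 in pregnant uteri and 5.65, 5.70, 5.76 and 6.06 in pseudopregnant uteri. Its groups did not overlap, and pregnant replicate 2, low for Ihh, was the highest array. The difference was 0.72 ± 0.20 (SE, limma adjusted p = 0.081), and 0.49 without that array (limma adjusted p = 0.055). Foxf1, a forkhead factor induced by hedgehog in the mesenchyme of mouse gut and lung, had 7.67, 7.20, 7.73 and 7.69 in pregnant uteri and 7.69, 7.79, 7.96 and 7.77 in pseudopregnant uteri. It was low in pregnant replicate 2 like Ihh, with a difference of -0.23 (limma adjusted p = 0.252), or -0.11 without that array. The cell cycle gene Ccnd1 differed by 0.23 (limma adjusted p = 0.133) and the forkhead gene Foxd2 by -0.17 (limma adjusted p = 0.151). Without pregnant replicate 2 they differed by 0.22 and -0.11. The groups did not overlap for 1 of the 14 genes higher in the pregnant group (Sfrp1) and 1 lower (Foxd2). The shares of all kept probe sets were 9.23% higher and 5.38% lower. In this list pregnant replicate 2 was lowest by more than 0.3 for 3 of 14 genes, Foxf1, Osr1 and Ccnd2, and highest by that gap for 1, Sfrp1, against 1.82% and 2.28% of all kept probe sets.

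The last list held 20 genes that act above or below Ihh in the mouse uterus or serve in the same steps of implantation, and all 20 were measured. None passed the limma threshold (0 of 20), 10 lay above and 10 below 0, and the median was -0.0036. Of the genes upstream of Ihh, the progesterone receptor Pgr differed by 0.03 (limma adjusted p = 0.812) and lay between 8.74 and 9.01 on all 8 arrays. Gata2, a factor that supports progesterone action in the uterus, had 8.46, 8.29, 8.40 and 8.35 in pregnant uteri and 8.90, 8.72, 8.61 and 8.55 in pseudopregnant uteri. All its pregnant values lay below all pseudopregnant ones, and the difference was -0.32 ± 0.079 (SE), which did not pass (limma adjusted p = 0.062). It was -0.29 without pregnant replicate 2 (limma adjusted p = 0.122). The groups did not overlap for 2 of the 20 genes lower in the pregnant group (Gata2, Muc1) and 1 higher (Lifr). The shares of all kept probe sets were 5.38% lower and 9.23% higher. Sox17, an epithelial factor that acts with Gata2 and Pgr at the Ihh gene, had 7.62, 6.73, 7.57 and 7.68 in pregnant uteri and 7.996, 7.71, 7.80 and 7.52 in pseudopregnant uteri. Its lowest array was pregnant replicate 2, as for Ihh, and the difference was -0.36 (limma adjusted p = 0.294), or -0.13 without that array (limma adjusted p = 0.495).

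Among the stromal genes downstream, Nr2f2, the factor through which Ihh acts on the mouse stroma, differed by -0.05 (limma adjusted p = 0.748) and stood at 9.25 in pregnant replicate 2, within the range of the other arrays. Hand2, Bmp2 and Wnt4 were highest in that uterus. Bmp2, a stromal growth factor of decidualisation, had 6.24, 8.37, 6.82 and 6.11 in pregnant uteri and 5.70, 6.27, 6.02 and 5.60 in pseudopregnant uteri. Wnt4, a signal downstream of Bmp2, had 6.62, 7.01, 6.60 and 6.64 in pregnant uteri and 6.62, 6.44, 6.35 and 6.58 in pseudopregnant uteri. Hand2, a progesterone-induced stromal factor, stood at 8.08 in pregnant replicate 2 and between 7.37 and 7.59 on the other 7 arrays. The uterus with the lowest Ihh thus had the highest Bmp2, Wnt4 and Hand2, and a link between them was not tested. Of the 20 genes, that array was highest by more than 0.3 for 4: Bmp2, Wnt4, Hand2 and Lifr. It was lowest by that gap for 2, Sox17 and Muc1. The shares of all kept probe sets were 2.28% highest and 1.82% lowest. The group differences were 0.99 for Bmp2, 0.22 for Wnt4 and 0.14 for Hand2 (limma adjusted p = 0.191, 0.208 and 0.542). Without that array they were 0.49, 0.13 and -0.01 (limma adjusted p = 0.213, 0.371 and 0.954).

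Other genes of this list with small p-values were Vcan, a matrix proteoglycan, Lifr, the receptor of the implantation cytokine LIF, and the epithelial mucin Muc1. They differed by 0.37, 0.52 and -0.34 (limma adjusted p = 0.066, 0.075 and 0.124). Pregnant replicate 2 was the highest array for Vcan and Lifr and the lowest for Muc1. Without it the differences were 0.29, 0.37 and -0.21 (limma adjusted p = 0.114, 0.085 and 0.123).

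**Figure D4:**
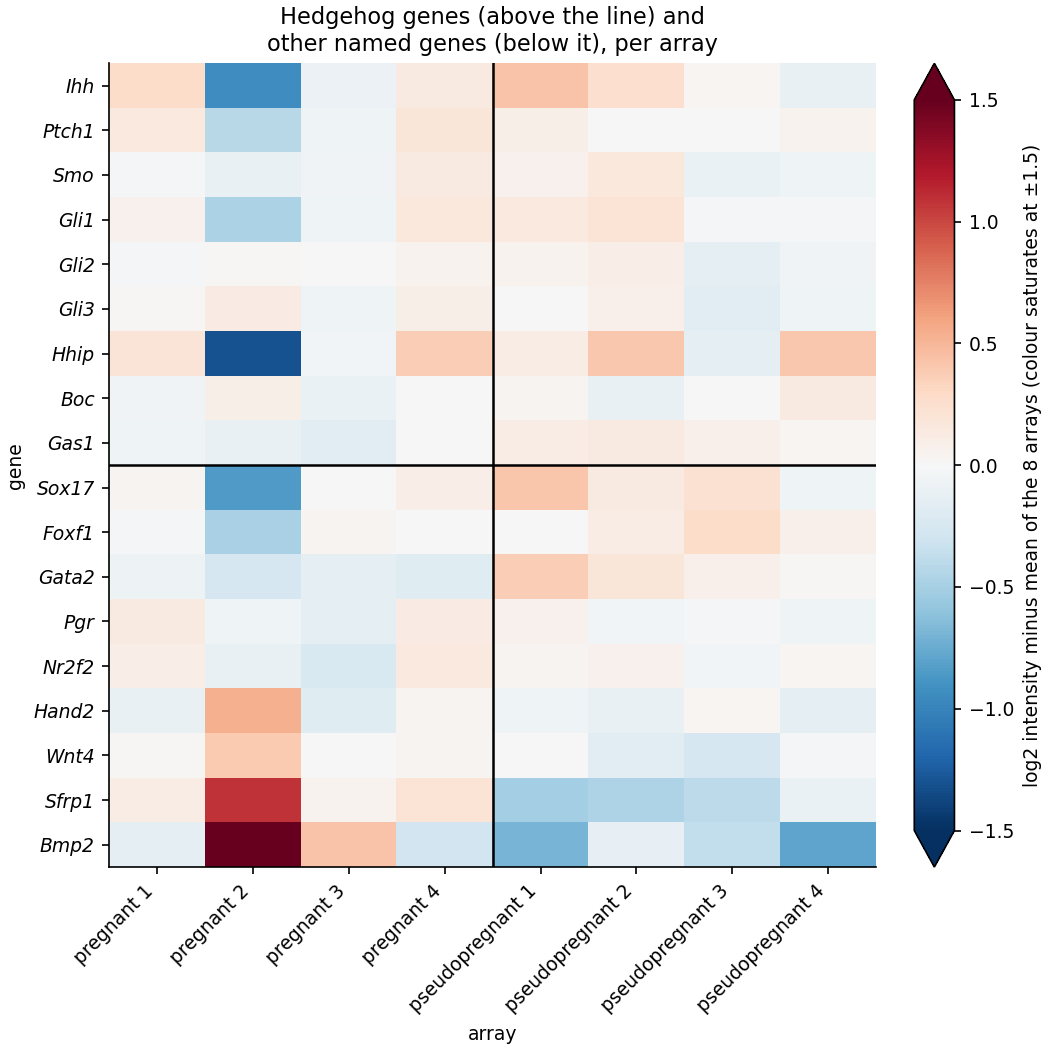
Log2 intensity of each gene on each array minus that gene's mean over the 8 arrays (colour, red higher and blue lower, saturating at 1.5), with the 9 hedgehog genes above the line, other named genes below it, and the 4 pregnant arrays left of the 4 pseudopregnant ones. In pregnant replicate 2 Ihh, Ptch1, Gli1, Hhip, Sox17 and Foxf1 are blue while Hand2, Wnt4, Sfrp1 and Bmp2 are red.

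**Figure D5:**
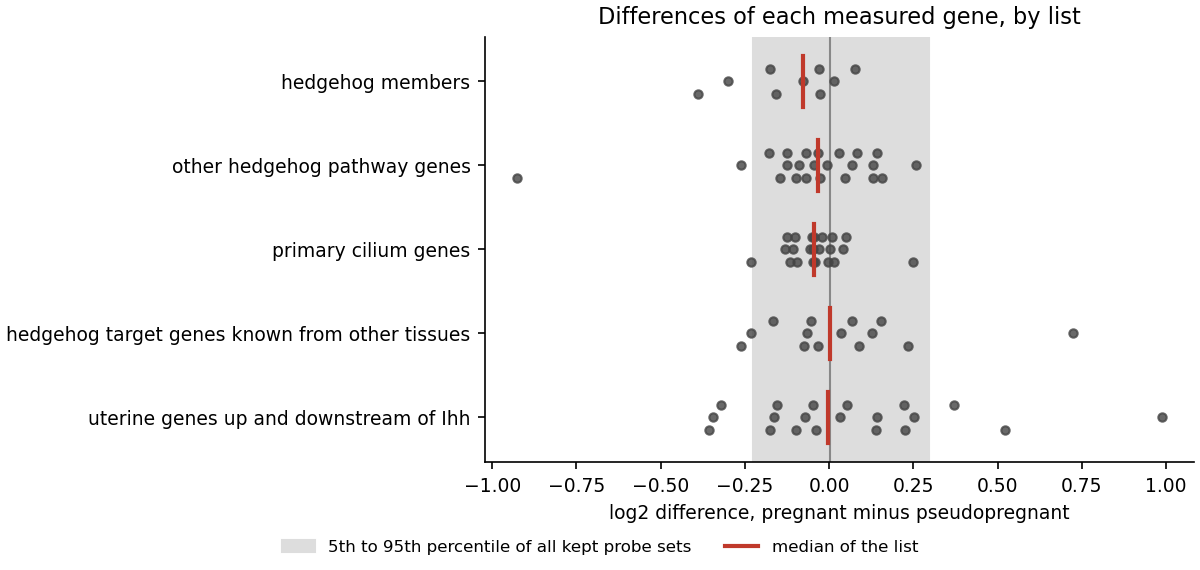
Difference in log2 intensity, pregnant minus pseudopregnant (horizontal axis), of every measured gene in the 9 members and the 4 related lists (points), with each list's median (red) and the 5th to 95th percentile of all 17494 kept probe sets (grey, -0.23 to 0.30). The list medians lie between -0.08 and 0.0016, and points outside the grey band include Lrp2 (-0.93), Sfrp1 (0.72) and Bmp2 (0.99).

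The arrays hold whole uterus, so fewer cells of a type and less RNA per cell cannot be told apart. Of 16 epithelial markers, 15 were measured and 0 passed the limma threshold, with 4 differences above and 11 below 0 and a median of -0.19. Their mean log2 intensity was 7.25 in pregnant replicate 2 and 7.43 to 7.49 on the other pregnant arrays, against 7.43 to 7.75 on the pseudopregnant arrays. Pregnant replicate 2 was the lowest array for 10 of the 15, by any gap, against 22% of all kept probe sets, and the highest for 2. By more than 0.3, Krt8 and Cldn7 were lowest and Spint1 highest there. Epcam stood at 7.79 there, above its lowest pseudopregnant value of 7.71, and Cdh1 at 7.63, its lowest value of all arrays. The 14 stromal markers had means of 9.79 to 9.85 in pregnant and 9.68 to 9.79 in pseudopregnant uteri, with 0 past the limma threshold and a median difference of 0.08, and Pdgfra among them differed by 0.10 (limma adjusted p = 0.474). The 12 smooth muscle markers had means of 9.09 to 9.20 in pregnant and 9.12 to 9.33 in pseudopregnant uteri. Their differences were 4 above and 8 below 0, with a median of -0.14. Those above 0 were Des (0.25), Cnn1 (0.15), Actg2 (0.12) and Tagln (0.09). Of the 12 smooth muscle markers 2 fell (limma adjusted p under 0.05), the calcium pump regulator Pln and the transcription factor Myocd. Of all 17494 kept probe sets 72 fell. Without pregnant replicate 2, 0 of 12 markers passed, and 23 of all kept probe sets fell. At a limma unadjusted p under 0.05, 6 of 12 were lower and 0 higher, both with and without that array. Of all 17494, 1650 were lower with it and 1222 without it. The myosin gene Myh11 differed by -0.22 (limma adjusted p = 0.070), and it passed under 2 alternatives, with cyclic loess (0.0499) and with a trended, robust variance prior (0.044). The 10 endothelial markers all lay below 0 with 0 past the threshold, and their mean was lowest in pregnant replicate 2 (8.12, against 8.27 to 8.36 on the other pregnant and 8.38 to 8.51 on the pseudopregnant arrays). That array was the lowest for 8 of the 10 by any gap, against 22% of all kept probe sets. By more than 0.3 it was the lowest for 2, Tek and Esam, against 1.82% of all.

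Part of the immune cell markers rose in the pregnant group. Of 10 macrophage markers 6 rose (limma adjusted p under 0.05), with list means of 7.18 to 7.43 in pregnant and 6.90 to 6.98 in pseudopregnant uteri. Of 6 measured NK cell markers 4 rose (limma adjusted p under 0.05), with list means of 6.43 to 7.24 in pregnant and 5.61 to 6.19 in pseudopregnant uteri. Over all kept probe sets 247 of 17494 rose at this threshold. The mean of both lists was highest in pregnant replicate 2, narrowly for the macrophage list (7.43, against 7.38 in pregnant replicate 4). Gene by gene, that array was the highest for 4 of the 10 macrophage and 5 of the 6 NK cell markers, against 19.2% of all kept probe sets. Without it 4 of the 10 macrophage and 2 of the 6 NK cell markers passed as higher, against 78 of all 17494 kept probe sets. Of 9 blastocyst markers 3 passed the filter, and Cdx2, Pou5f1, Nanog and Sox2 were below it. The 3 were Eomes, Gata3 and Dppa5a, with differences of 0.72, 0.05 and 0.15 and 0 past the limma threshold. Eomes is also counted among the NK cell markers. Of 8 ovary and oviduct markers 2 were measured, and Star, Cyp11a1, Amh and Foxj1 were below the filter. Inha, an inhibin subunit made in the ovary, had log2 intensities of 6.17, 6.16, 6.17 and 6.40 in pregnant uteri and 7.28, 6.22, 6.94 and 7.62 in pseudopregnant uteri. Pseudopregnant replicate 2 lay within the pregnant range and the other 3 above it, with a difference of -0.79 (limma adjusted p = 0.097). Tuba1a, the other one, differed by 0.18 (limma adjusted p = 0.064). The part of other tissue in any group difference, and that of cell makeup in the low Ihh, Ptch1, Gli1 and Hhip of pregnant replicate 2 was not tested.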

How the data were processed

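Total RNA of 8 mouse uteri, extracted with Trizol, was hybridised to 1-colour gene expression arrays, 4 for each group, per the labels' protocols. The values deposited by the authors are linear intensities per probe set made with RMA, per the submitters' processing notes, with no version given; RMA corrects background, equalises the arrays' distributions and compresses changes near background. The sources used here give no software, annotation build or batch. Intensities reached 8113, so log2 was taken. Of 35556 probe sets, 6612 in a low block of identifiers without genes were left out as controls, an inference from the table. Of the other 28944, 21789 had 1 gene symbol, 1621 several and 5534 none. A gene with more than 1 single-symbol probe set was taken by the one with the highest mean over the 8 arrays. Wnt4 and Foxf1 had 2 each, and the values of their other one are not shown. Probe sets over their array's 40th percentile on at least 4 of 8 arrays were kept (17494).

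The fit had group as its sole term (R 4.3.3, limma 3.58.1, lmFit then eBayes) and was two-sided, with Benjamini-Hochberg adjustment over all kept probe sets and a threshold of 0.05. Correlations had exact two-sided permutation tests. The code was tested on simulated data. Figures used matplotlib 3.10.9 in Python 3.11.15. The rule for named genes took all 9 members, up to 4 genes with the smallest p of each related list, Nr2f2, Hand2, Bmp2, Wnt4, Pgr, Gata2 and Sox17, the 5 genes most like Ihh and Gli1, genes with a value far from its group, and Epcam, Cdh1, Pdgfra and Myh11. Genes outside this rule, such as Lrp2, Disp2, Osr1, Ccnd2 and the other cell type markers, were named after their values were seen. Members and lists were chosen with earlier results of these data known. Alternatives were other scalings, filters and variance models, the replicate number as a block, and leaving out each array. The number of arrays limits the precision.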

Additional observations from a re-analysis of the deposited data

Results flagged for a closer look

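The highest and the lowest value of each group of 4 arrays were examined for a gap to the nearest other array larger than Dixon's 95% limit for 4 values, as a share of the group's range,, in 72 gene and group pairs; chance alone would pass about 1 in 20. No hedgehog member passed this limit, and 6 other genes did, all in pregnant replicate 2. Wnt4 was 7.01 there on the log2 scale, against 6.60 to 6.64 on the other pregnant arrays, Sfrp1 was 7.24 against 6.21 to 6.36, and Pdgfra, a receptor of stromal fibroblasts, was 10.27 against 10.03 to 10.04. Sox17 was 6.73 there, against 7.57 to 7.68, Foxf1 was 7.20 against 7.67 to 7.73, and Foxd2 was 5.11, below that array's 40th percentile, against 5.31 to 5.32.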

How the results depend on the processing

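The count of probe sets past the limma threshold was 319 and became 54 (42 higher, 12 lower) without the intensity filter, 708 with a trended, robust variance prior and 174 (140 higher, 34 lower) with the replicate block; leaving out single arrays it lay between 40 and 235. The replicate numbers share only a number: deviations of same-numbered arrays correlated at -0.10 to 0.24. Members past the threshold numbered 0 in all 17 alternatives. With the trended prior 1 other hedgehog gene (Spop), 1 cilium gene (Ift20) and 2 uterine genes (Vcan, Gata2) passed; leaving out single arrays gave 0 to 1 uterine genes (Vcan, without pregnant replicate 3). Member differences kept their sign and side in 145 comparisons with alternatives and changed sign in 7. Gli2 (0.02) became -0.0022 with arrays centred on their medians. Without single arrays Gli2 ranged from -0.026 to 0.052, Ptch1 from -0.151 to 0.050, Smo from -0.079 to 0.018 and Boc from -0.069 to 0.011. Of the other named genes, Epcam (0.02) became -0.00025 after centring, -0.014 after a repeated quantile normalization and -0.019 after cyclic loess, and -0.080 to 0.071 without single arrays. Pgr became -0.0098 after cyclic loess and -0.0092 to 0.080 without single arrays, Hand2 -0.010 to 0.226 and Nr2f2 -0.107 to 0.020. Myh11 passed with cyclic loess (-0.25) and the trended prior. All 6 correlations lost their calls without pregnant replicate 2 and 5 without pregnant replicate 3, and Ihh with Hhip also without pregnant replicates 1 and 4 and pseudopregnant replicates 2 and 3; the cause of none of these changes was tested. RMA values near background understate change, which bears most on Hhip.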
